A study of Mus musculus with 8 samples.

Results

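Endomucin and 4 other sialomucin genes were followed through sorted kidney cells of mice with and without Emcn. A sialomucin is a surface protein whose outer part carries many O-linked sugar chains ending in sialic acid. The chains make the protein stiff and negatively charged, so that these proteins can keep cell surfaces apart, and, once suitably sulfated and fucosylated, some of them can also be bound by selectins on leukocytes. The 5 genes were Emcn, Cd34, Podxl, Podxl2 and Cd164, taken by symbol from the 17326 gene lines that held all 8 counts. All 5 were found there, and all 5 were among the 16477 genes that passed the filter on low counts.

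Endothelium and podocytes, the cells on either side of the glomerular filter, were sorted by flow cytometry from kidneys of EMCN+/+ and EMCN-/- mice. Polyadenylated RNA was sequenced in 2 libraries per cell type and genotype, numbered 2 and 3 in the labels, and each library held between 10478956 and 17386042 counts on complete lines. How the Emcn allele was disrupted, and the strain, sex and age of the animals, the sort markers and whether a library came from 1 animal or from a pool, are not given in the sources used here. Nothing in the labels says that the libraries of a group came from separate animals, so the tests measure only the spread between these libraries, which may be technical. With 2 libraries per group, groups can also lie apart by chance, and the share of all genes that do so is not given here. Lack of overlap is therefore a description of the values. The question was how much of each sialomucin each cell type carries, and whether another member is higher where Emcn is missing.

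The cell labels were checked against defining markers. Levels are in CPM, the counts scaled to a common library size with edgeR's trimmed mean of M-values (TMM). Kdr, a growth factor receptor of endothelial cells, was at 1484 ± 267 CPM in endothelium and 63.1 ± 15.5 CPM in podocytes of wild-type mice (SD, n = 2). Wt1, a transcription factor of podocytes, was at 40.7 ± 20.5 and 493 ± 102 CPM in the same groups (SD, n = 2). Each sort thus held RNA of the other cell type's markers. The leukocyte gene Ptprc was on an incomplete line and is not analysed here. Replicate 3 of wild-type endothelium had the highest share of counts from 15 mitochondrial genes, 26.2% against 10.1% to 22.2% in the other 7 libraries. Its summed level of the 6 tubule markers on complete lines (of 12 listed) was 14414 CPM against 2992 to 11532 CPM in the others. In every group both measures were higher in replicate 3 than in replicate 2. The mitochondrial share in replicates 2 and 3 was 13.3% and 26.2% in wild-type endothelium and 10.1% and 19.55% in knockout endothelium. In podocytes it was 12.2% and 16.9% in wild type and 12.9% and 22.2% in knockout. The 7 immune markers (of 12) summed to between 32.9 and 126 CPM in every library. The 9 mural and mesangial markers (of 12) summed to between 363 and 732 CPM in the endothelium libraries. In replicates 2 and 3 of podocytes they summed to 1017 and 982 CPM in wild type and 1346 and 539 CPM in knockout.

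Podxl, the clearer podocyte member, had no upstream sequence in the set used, and those of Podxl2 are not shown. Upstream sequences are shown for Emcn and Cd34, higher in endothelium, and for Cd164, higher in podocytes by a call at the threshold in wild type only. Each is the 250 bases before the gene's RefSeq start on GRCm38.p6, read 5′ to 3′ on the plus strand, from chr3:137340828-137341077, chr1:194938571-194938820 and chr10:41519250-41519499. The GENCODE M21 gene starts (137341067, 194938819 and 41519414) lie inside these windows. The end of each window is therefore within the gene by that annotation. Capitals mark AGGAAG or its reverse complement CTTCCT, letters found in the binding motif of ETS factors, a family that includes the endothelial regulators ERG and FLI1.
Emcn: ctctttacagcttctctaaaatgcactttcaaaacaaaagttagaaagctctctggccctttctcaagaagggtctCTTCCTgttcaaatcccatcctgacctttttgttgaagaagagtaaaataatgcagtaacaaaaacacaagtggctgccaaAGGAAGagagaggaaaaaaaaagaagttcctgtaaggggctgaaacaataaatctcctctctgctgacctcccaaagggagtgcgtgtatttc
Cd34: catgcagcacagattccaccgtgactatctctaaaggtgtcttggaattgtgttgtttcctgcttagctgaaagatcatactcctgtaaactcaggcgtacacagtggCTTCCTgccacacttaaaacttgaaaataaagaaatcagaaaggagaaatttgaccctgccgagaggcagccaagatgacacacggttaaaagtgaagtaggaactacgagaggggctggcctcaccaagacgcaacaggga
Cd164: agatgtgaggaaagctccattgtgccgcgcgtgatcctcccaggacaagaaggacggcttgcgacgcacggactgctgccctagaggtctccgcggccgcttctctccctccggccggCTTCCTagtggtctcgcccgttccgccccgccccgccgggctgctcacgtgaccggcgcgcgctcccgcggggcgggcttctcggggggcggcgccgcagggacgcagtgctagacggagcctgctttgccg
The letters occurred at 2 places before Emcn, starting 174 and 93 bases before the start site. They occurred at 1 place before Cd34 (142 bases) and at 1 place before Cd164 (132 bases). Of the windows not shown, the Podxl2 window at chr6:88874066-88874315 held 1 match (26 bases), and the other Podxl2 windows held 0. Of 32851 upstream windows of the same length in the RefSeq table, 29.5% held at least 1 match and 6.25% at least 2, and these matches are a description of the letters. The windows differed in base content. The Emcn window was 40.8% G or C with 1 CpG, the Cd34 window 46.4% with 6 CpGs and the Cd164 window 71.6% with 33 CpGs, where the median window was 52.4% G or C.

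Emcn (Entrez 59308), the targeted gene, encodes endomucin, a sialomucin of venous and capillary endothelium. In GENCODE M21 it lies on the plus strand of chromosome 3 at 137341067 to 137432185 (GRCm38). The wild-type endothelium libraries held 25953 and 25261 counts, or 1972 and 1828 CPM, and the knockout ones 2460 and 2081 counts, or 173 and 179 CPM. Both knockout libraries lay far below both wild-type libraries, in the direction of the genotype labels. The difference was a log2 fold change of −3.43 (95% interval −4.20 to −2.67; edgeR adjusted p 0.0205), and the knockout mean was 9.27% of the wild-type mean. Even so, Emcn remained an abundant transcript in knockout endothelium, ranking 715th of 16477 genes by CPM where it ranked 33rd in wild type. A gene-level count carries no position, so where in Emcn the reads of the knockout libraries fall is not known here, nor whether that RNA could encode the protein.

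The podocyte libraries held little Emcn. The wild-type ones had 1143 and 495 counts, or 74.1 and 35.9 CPM, and the knockout ones 90 and 67 counts, or 5.59 and 4.94 CPM. The knockout libraries were again the lower ones without overlap, at 9.57% of the wild-type mean, with a log2 fold change of −3.38 (95% interval −4.17 to −2.59; edgeR adjusted p 0.0321). The genotype effect in endothelium minus that in podocytes was −0.05 (95% interval −1.11 to 1.01; edgeR adjusted p 0.999996). The 4 groups were ordered wild-type endothelium, knockout endothelium, wild-type podocytes and knockout podocytes, with no overlap between neighbours (plot of levels by library).

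The Emcn effect kept its direction when single libraries were left out, while its adjusted p, and in podocytes its size, depended on them. Without 1 of the 4 endothelium libraries the log2 fold change ran from −3.49 to −3.39, and the edgeR adjusted p was 0.0989 without wild-type replicate 2, 0.0838 without wild-type replicate 3, 0.191 without knockout replicate 2 and 0.117 without knockout replicate 3. In podocytes it was −2.75 without wild-type replicate 2 (edgeR adjusted p 0.139), −3.48 without knockout replicate 2 (0.558), −3.30 without knockout replicate 3 (0.124) and −3.81 without wild-type replicate 3 (0.00661). In each of these fits an arm was left with 1 library, which was taken to vary like the other groups. Scaling by library size only also ended the adjusted call, at −3.11 in endothelium (edgeR adjusted p 0.0835) and −3.26 in podocytes (0.0786). A minimum mean of 5 CPM did so too, at −3.27 (0.0792) and −3.305 (0.0975), and in podocytes a fit of only the 4 podocyte libraries, at −3.37 (0.194). DESeq2 called Emcn in both cell types, with adjusted p-values of 5.8e-19 and 6.9e-16.

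**Figure D1:**
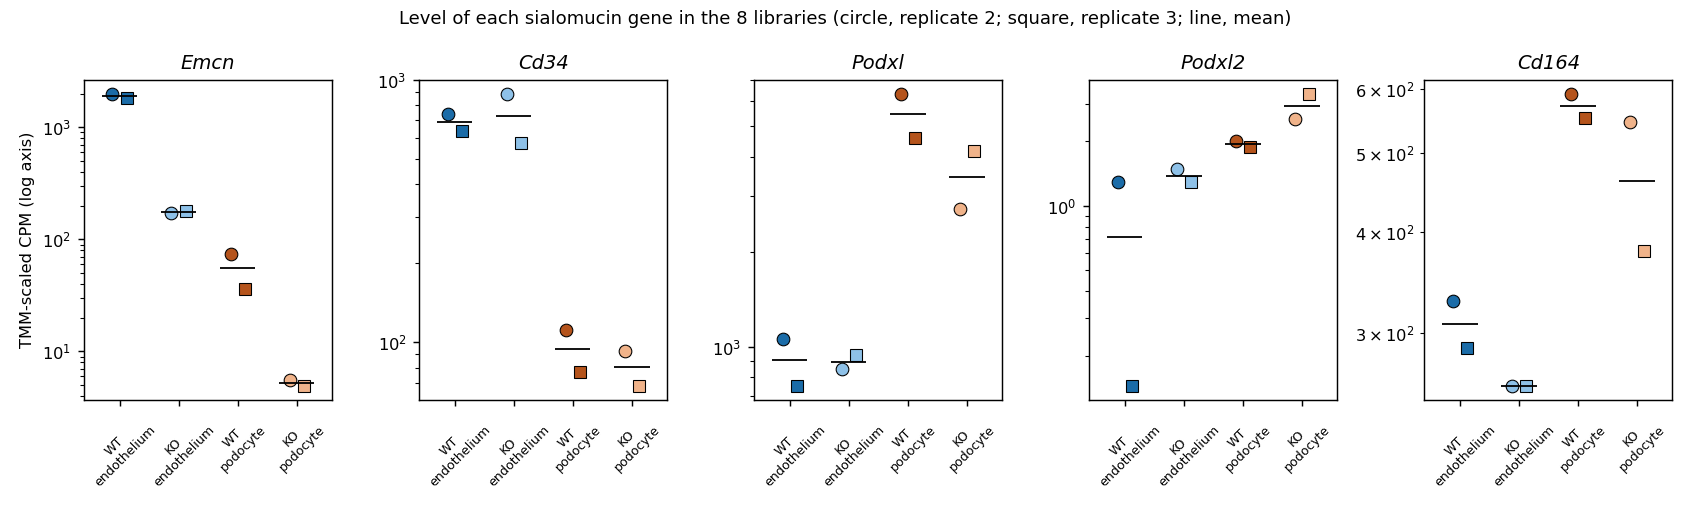
TMM-scaled CPM of the 5 sialomucin genes on log axes, 1 panel per gene, with 1 point per library (circle, replicate 2; square, replicate 3) and a line at the mean of each group. Emcn is the 1 gene whose knockout libraries lie far below the wild-type libraries, at 173 and 179 against 1972 and 1828 CPM in endothelium, while Podxl and Cd164 are higher in podocytes and Cd34 in endothelium.

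Cd34 (Entrez 12490; plus strand of chromosome 1, 194938819 to 194961279) encodes a sialomucin of blood progenitors and capillary endothelium that can serve as a selectin ligand. Wild-type endothelium held 739 and 639 CPM in replicates 2 and 3, and knockout endothelium 880 and 575 CPM. The knockout values lay on both sides of the wild-type ones, so the groups overlapped. The log2 fold change was 0.08 (95% interval −0.57 to 0.73; edgeR adjusted p 0.940), an interval that runs from 0.672-fold to 1.66-fold. Its sign rested on single libraries, with −0.27 without knockout replicate 2 and −0.03 without wild-type replicate 3. In podocytes Cd34 stood at 111 and 77.2 CPM in wild type and 92.9 and 68.4 CPM in knockout, again with overlap, and a log2 fold change of −0.23 (95% interval −0.88 to 0.43; edgeR adjusted p 0.981). That sign too rested on 1 library, since the value was 0.09 without wild-type replicate 2.

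Podxl (Entrez 27205; minus strand of chromosome 6, 31519488 to 31563981) encodes podocalyxin, the main sialoprotein of podocyte foot processes, which is also made by endothelium. Endothelium held 1062 and 753 CPM in wild type and 852 and 943 CPM in knockout. The knockout values lay between the wild-type ones, with a log2 fold change of −0.02 (95% interval −0.74 to 0.71; edgeR adjusted p 0.989), whose sign was not stable. It was 0.24 without wild-type replicate 2, −0.25 without wild-type replicate 3, 0.05 without knockout replicate 2 and −0.10 without knockout replicate 3, and it was also above 0 with library size only (0.28) or a minimum mean of 5 CPM (0.13). In podocytes Podxl was among the most abundant transcripts, 14th of 16477 by CPM in wild type and 18th in knockout. The wild-type podocyte libraries held 6298 and 4578 CPM and the knockout ones 2738 and 4154 CPM. The groups did not overlap, the knockout libraries being lower, but the difference did not pass the test, with a log2 fold change of −0.66 (95% interval −1.39 to 0.07; edgeR adjusted p 0.978). It was −0.39 without knockout replicate 2 and −0.99 without knockout replicate 3.

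The summed level of podocyte markers was also lower in knockout podocytes. By genotype in podocytes, 0 of the 12 markers other than Podxl were called by edgeR or DESeq2. An unadjusted p under 0.05 was found for 1 of the 12, where 4.43% of all genes tested had it. Their median log2 fold change was −0.52, where that of all genes was 0.02. Synpo alone was at 3339 ± 2029 CPM in wild-type podocytes (SD, n = 2). The summed level of the 12 other podocyte markers on complete lines (of 19 listed) was 18015 and 11963 CPM in wild-type podocytes and 9384 and 10340.0 CPM in knockout podocytes, and 0 of the 12 were at 0 counts in any library. Podxl per that sum was 35.0% and 38.3% in wild type and 29.2% and 40.2% in knockout, so the knockout libraries then lay on both sides of the wild-type ones. The part of podocyte content in the Podxl difference was not tested. In bulk RNA, fewer cells of a type and less RNA per cell cannot be told apart.

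Podxl2 (Entrez 319655; minus strand of chromosome 6, 88842558 to 88875044) encodes endoglycan, a close relative of CD34 and podocalyxin. It was nearly absent from every library. The wild-type endothelium libraries had 17 and 2 counts and the knockout ones 21 and 15. The wild-type podocyte libraries had 31 and 26 counts and the knockout ones 41 and 45. The highest value was 3.32 CPM, in a knockout podocyte library, and the knockout podocyte libraries (2.55 and 3.32 CPM) lay above the wild-type ones (2.01 and 1.89 CPM). At this depth no change was detectable. The log2 fold change was 0.95 in endothelium (95% interval −0.93 to 2.83; edgeR adjusted p 0.753) and 0.59 in podocytes (95% interval −1.15 to 2.32; edgeR adjusted p 0.981). The endothelial value rested on the library with 2 counts, since it was 0.09 without wild-type replicate 3 and 3.17 without wild-type replicate 2.

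Cd164 (Entrez 53599; plus strand of chromosome 10, 41519414 to 41531048) encodes endolyn, a sialomucin that many cell types carry, largely in endosomes and lysosomes. Endothelium held 329 and 288 CPM in wild type and 259 and 259 CPM in knockout, so the knockout libraries were the lower ones by a small margin. The log2 fold change of −0.25 did not pass the test (95% interval −0.80 to 0.29; edgeR adjusted p 0.762), and it was 0.06 with scaling by library size only. Podocytes held 591 and 553 CPM in wild type and 547 and 379 CPM in knockout, with a log2 fold change of −0.31 (95% interval −0.85 to 0.24; edgeR adjusted p 0.978). Its size rested on single libraries, at −0.07 without knockout replicate 3 and −0.60 without knockout replicate 2.

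By genotype, then, 1 of the 5 members was called in endothelium and 1 in podocytes, and in both cases it was Emcn. Over all genes tested the same test called 0.00607% in endothelium and 0.00607% in podocytes, which is Emcn alone. At an unadjusted p under 0.05 the members' count was also 1 of 5 in each, where the share of all genes was 5.49% in endothelium and 4.43% in podocytes. The median log2 fold change over all genes tested was 0.01 in endothelium and 0.02 in podocytes. With scaling by library size only these medians were 0.33 and 0.13. Under that scaling the endothelial values of Podxl and Cd164 (0.28 and 0.06) lay below the median. Those of Cd34 and Podxl2 (0.41 and 1.19) lay above it, and none of these was called by edgeR. The test of a difference between the cell types called 0 of 16477 genes by edgeR and 0 by DESeq2, with 428 (2.60%) at an unadjusted p under 0.05. The 4 members other than Emcn had interaction values of 0.30 for Cd34 (95% interval −0.62 to 1.23), 0.64 for Podxl (−0.39 to 1.67), 0.36 for Podxl2 (−2.16 to 2.89) and 0.05 for Cd164 (−0.71 to 0.82), knockout effect in endothelium minus that in podocytes.

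The question of compensation was put in levels per transcript length, so that genes could be compared. CPM were divided by the length in kb of the longest GENCODE M21 transcript (3521 bases for Emcn, 3063 for Cd34, 5379 for Podxl, 2195 for Podxl2 and 2922 for Cd164). On that scale Emcn fell in endothelium from a mean level of 540 to 50.0 CPM per kb, a difference of −489.6. Cd34 differed by 12.6, Cd164 by −17.0, Podxl by −1.86 and Podxl2 by 0.30 CPM per kb, knockout minus wild type. Laid against the loss of Emcn, the upper ends of the 95% intervals correspond to gains of 148 CPM per kb for Cd34, 108 for Podxl, 23.4 for Cd164 and 1.998 for Podxl2. The Emcn difference at the end of its own interval nearest 0 was −454.6 CPM per kb, larger in size than each of these. These intervals are for each gene alone, and gains within them could not be detected with 2 libraries per group.

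Summed over the 5 members, the level per length was 1112 and 967 CPM per kb in wild-type endothelium and 584 and 503 CPM per kb in knockout endothelium. The groups did not overlap. Without Emcn, the other 4 members summed to 552 and 447 CPM per kb in wild type and 535 and 452 CPM per kb in knockout, so the knockout sums lay between the wild-type ones. Emcn made up 50.4% and 53.7% of the sum in wild-type endothelium and 8.43% and 10.1% in knockout endothelium. In knockout endothelium Cd34 held 49.2% and 37.3% of the sum and Podxl 27.1% and 34.9%, an order that turns with exon-union lengths (33.0% and 23.0% for Cd34, 42.4% and 50.2% for Podxl). The order of the other members depended on the length used. With the union of all annotated exons in place of the longest transcript, Podxl stood above Cd34 in wild-type endothelium (165 against 94.5 CPM per kb), while with the longest transcript Cd34 stood above Podxl (225 against 169). With either length the TMM-scaled sum without Emcn differed by less than the spread between libraries. It was 500 ± 73.8 against 494 ± 58.6 CPM per kb by longest transcript and 329 ± 56.0 against 322 ± 17.9 by exon union (wild type against knockout; SD, n = 2). Sums with library size only were not computed. Under that scaling the endothelial log2 fold changes were 0.41 for Cd34, 0.28 for Podxl, 1.19 for Podxl2 and 0.06 for Cd164. The median over all genes was then 0.33, and none of the other 4 members was called by edgeR.

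**Figure D2:**
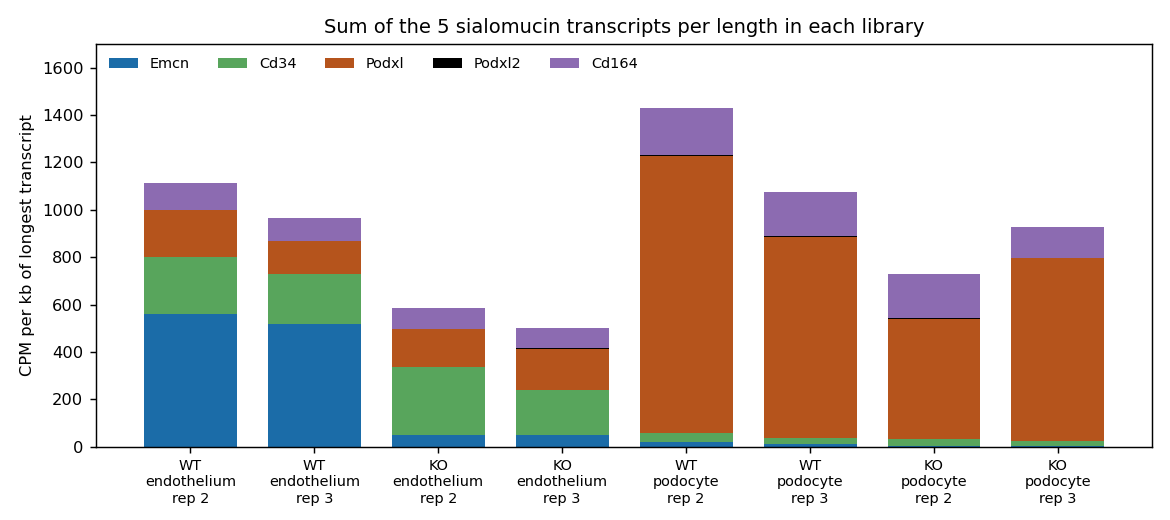
Stacked bars of CPM per kb of the longest annotated transcript for the 5 sialomucins in each of the 8 libraries, from 0. The endothelium bars fall from 1112 and 967 in wild type to 584 and 503 in knockout, with the lost height in the Emcn segment, while the podocyte bars are mostly Podxl.

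In podocytes the sum was mostly Podxl, at 81.8% and 79.1% in wild type and 69.8% and 83.3% in knockout. The 5 members summed to 1431 and 1076 CPM per kb in wild-type podocytes and to 729 and 927 CPM per kb in knockout podocytes, without overlap. Of the mean difference, Podxl accounted for −370.4, Cd164 for −37.4, Emcn for −14.1 and Cd34 for −4.47 CPM per kb, and of these Emcn alone passed its test.

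The comparison of endothelium with podocytes placed the members in each cell type. In wild type, 4 of the 5 members were called, against 8.99% of all genes tested, and in knockout 3 of 5, against 10.4%. By direction, 2 members were higher in endothelium in wild type (4.26% of all genes) and 2 lower (4.73%), and in knockout 2 were higher (4.28%) and 1 lower (6.09%). At an unadjusted p under 0.05 there were 4 of 5 in each genotype, against 19.6% of all genes in wild type and 22.9% in knockout. The genotypes share no library in these comparisons, but 1 fit over all 8 libraries gave both the same scaling and the same estimate of spread. Emcn and Cd34 were higher in endothelium in both genotypes, and Podxl was higher in podocytes in both. Emcn was 34.5-fold higher in wild-type endothelium than in wild-type podocytes (log2 fold change 5.11, 95% interval 4.28 to 5.94; edgeR adjusted p 4.3e-05) and 33.4-fold higher in knockout (5.06, 4.22 to 5.91; edgeR adjusted p 4.1e-05). The wild-type log2 value was 5.74 without wild-type podocyte replicate 2 and 4.68 without wild-type podocyte replicate 3. Cd34 was 7.30-fold higher in wild type (log2 fold change 2.87, 95% interval 2.17 to 3.57; edgeR adjusted p 0.000245) and 9.02-fold higher in knockout (3.17, 2.46 to 3.88; edgeR adjusted p 0.000163). Podxl was 5.99-fold higher in podocytes in wild type (log2 fold change of endothelium against podocytes −2.58, 95% interval −3.35 to −1.81; edgeR adjusted p 0.000843) and 3.84-fold higher in knockout (−1.94, −2.69 to −1.19; edgeR adjusted p 0.00435).

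Cd164 was also higher in podocytes, by less. Its log2 fold change of endothelium against podocytes was −0.89 in wild type (95% interval −1.44 to −0.34; edgeR adjusted p 0.0498) and −0.84 in knockout (95% interval −1.38 to −0.29; edgeR adjusted p 0.0579). The wild-type call lay at the threshold and was lost in each fit that left out 1 wild-type library, with edgeR adjusted p-values of 0.131 and 0.279 without endothelium replicates 2 and 3 and 0.298 and 0.142 without podocyte replicates 2 and 3. In knockout, Cd164 passed without knockout podocyte replicate 3 (−1.09, edgeR adjusted p 0.0248). Podxl2 did not pass in either genotype, with −1.44 (95% interval −3.30 to 0.42; edgeR adjusted p 0.413) and −1.07 (95% interval −2.85 to 0.70; edgeR adjusted p 0.476).

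**Figure D3:**
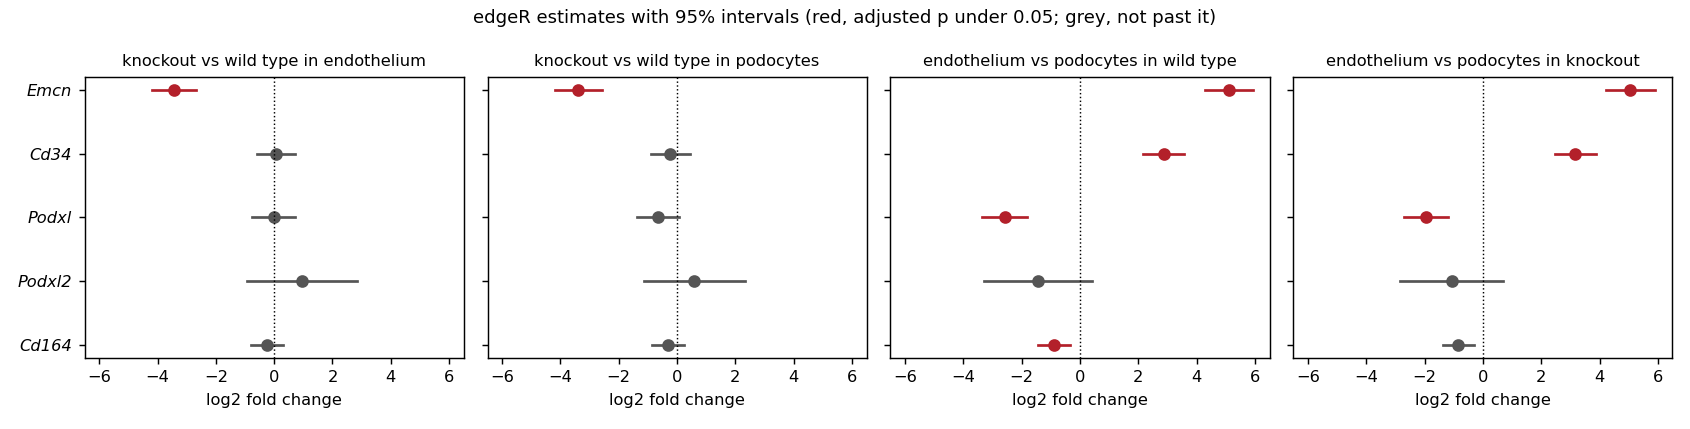
edgeR log2 fold changes of the 5 members (points) with 95% intervals (lines) in 4 comparisons, red where the adjusted p was under 0.05. The genotype panels show Emcn alone in red, at −3.43 and −3.38, and the cell-type panels show Emcn and Cd34 to the right (higher in endothelium) and Podxl to the left (higher in podocytes).

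How much of a member's level in the other sort could be matched by the markers of the source cell type was described by ratios. The wild-type podocyte level of 16 endothelial markers, as a percentage of their wild-type endothelium level, had a median of 7.43% and ran from 2.96% for Egfl7 to 294% for Cldn5, a claudin that was higher in the podocyte sort. Emcn stood at 2.90% by group means, where 0 of the 16 markers were lower. The position varied by podocyte library, each set against the mean of both wild-type endothelium libraries. In podocyte replicate 2 Emcn was at 3.899%, above 2 of the markers (Egfl7 at 3.74% and Tie1 at 3.48%). In podocyte replicate 3 it was at 1.89%. Cd34 stood at 13.7%, above 12 of the 16. In knockout the median was 5.48%, Emcn stood at 2.99% (above 3 of 16) and Cd34 at 11.1% (above 12 of 16). Pecam1 stood at 4.27% and Kdr at 4.25% in wild type. Within the podocyte libraries, the summed endothelial markers were 1332 and 1032 CPM in wild type and 901 and 977 CPM in knockout, lower in the knockout libraries without overlap. Emcn per that sum was 5.56% and 3.48% in wild type and 0.621% and 0.506% in knockout, again without overlap. The part of endothelial RNA in the Emcn level of podocyte libraries was not tested.

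For Podxl the ratios ran the other way. The wild-type endothelium level of 12 podocyte markers, as a percentage of their wild-type podocyte level, had a median of 16.3% and ran from 7.03% for Synpo, an actin-binding protein of foot processes, to 206% for Pla2r1. Podxl stood at 16.7%, above 6 of the 12, and in knockout at 26.0%, above 7 of the 12. The part of podocyte RNA in the Podxl level of endothelium was not tested.

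**Figure D4:**
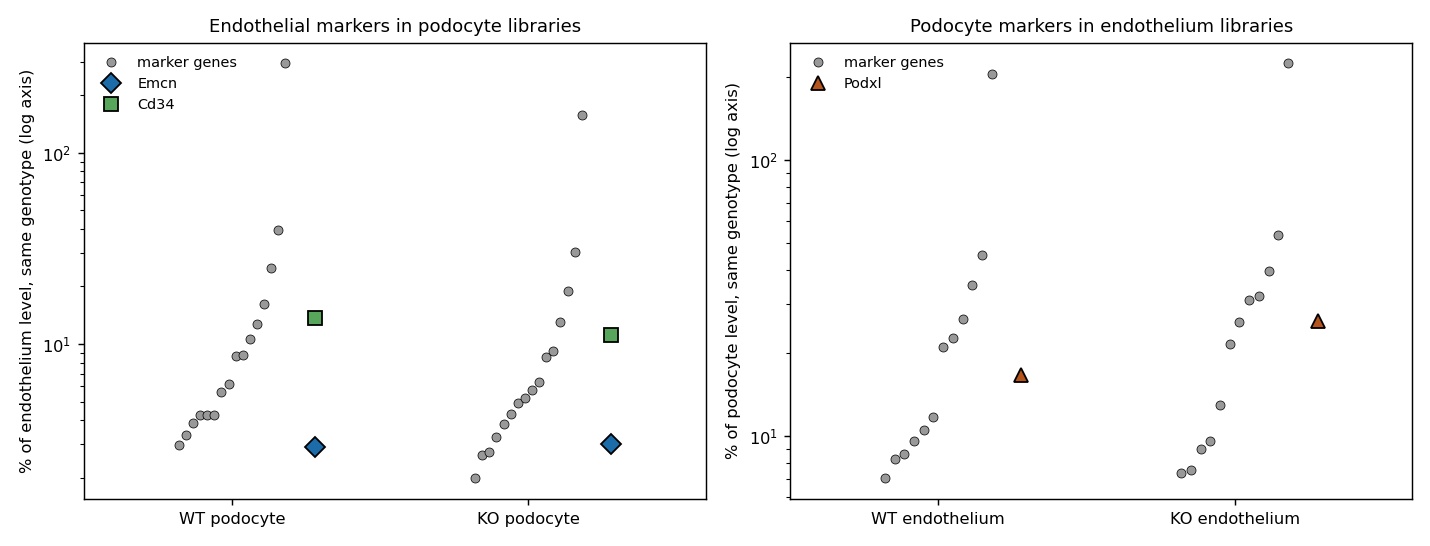
Level of each marker in the other cell type's libraries as a percentage of its level in its own cell type, on a log axis, for 16 endothelial markers (left panel) and 12 podocyte markers (right panel) in each genotype (grey points), with Emcn, Cd34 and Podxl as coloured symbols. Emcn lies in the lower part of the endothelial markers, at 2.90% and 2.99%, Cd34 in their upper part, at 13.7% and 11.1%, and Podxl among the podocyte markers, at 16.7% and 26.0%.

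The genes whose log2 CPM followed each member most closely over the 8 libraries were listed as a description, among 10080 genes whose mean was 5 CPM or more. The libraries share the split by cell type, so high correlations are common. Cd34 was followed by Snrk (Pearson r 0.999), Mndal (0.999) and Ifitm3 (0.998), which were all higher in endothelium. Podxl was followed by Cmtm7 (0.997), Nsf (0.996) and Natd1 (0.995), which were all higher in podocytes. Emcn was followed less closely, by C1d (0.984), Syp (0.977) and Pdcd10 (0.973), and the spread of C1d was far smaller, from 74.0 CPM in knockout podocytes to 109 CPM in wild-type endothelium as group means. Cd164 was followed by Bbs4 (0.994), Mief1 (0.994) and Stk4 (0.992), and Podxl2 by Atxn1l (0.982), Med23 (0.969) and Tmem144 (0.959).

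Other mucin-type membrane proteins were examined for the same question. Of 26 listed genes, 20 were tested, and 0 were called by genotype in endothelium by edgeR (3 at an unadjusted p under 0.05, where 5.49% of all genes tested were; 0 called by DESeq2). The median log2 fold change of the list was 0.42 in endothelium, where that of all genes was 0.01. The smallest p belonged to Muc4, a large membrane mucin, whose counts in endothelium were 55 and 41 for wild type against 139 and 133 for knockout, or 3.57 ± 0.86 against 10.6 ± 1.16 CPM (SD, n = 2). The knockout libraries were higher without overlap, but the log2 fold change of 1.57 (SE 0.54) did not pass (edgeR adjusted p 0.716). In podocytes 0 of 20 were called by edgeR (2 at an unadjusted p under 0.05, where 4.43% of all genes tested were). DESeq2, which called 12 of all 16477 genes tested, called 1 of the 20. That gene was Havcr1, a mucin-domain protein of injured proximal tubule, whose podocyte libraries held 4 and 12 counts (wild type) against 197 and 29 (knockout), for a log2 fold change of 3.67 (SE 0.91; edgeR adjusted p 0.978). The tubule marker sums of the same libraries were 5166 and 11532 CPM against 5208 and 7751 CPM, so they overlapped, and the part of tubule RNA in the Havcr1 difference was not tested. Between the cell types in wild type, 4 of 20 were higher in endothelium and 2 higher in podocytes, where the shares of all genes tested were 4.26% and 4.73%. They included Cd93, a receptor with a mucin-like stalk (134 ± 29.7 CPM in endothelium, 11.9 ± 1.47 CPM in podocytes; SD, n = 2), and Pdpn, podoplanin, a sialomucin of podocytes (29.8 ± 0.55 against 212 ± 73.4 CPM; SD, n = 2). Cd24a and Mcam were also higher in endothelium, and Parm1 was higher in podocytes. These 5 genes were called in knockout in the same directions. The knockout counts were again 4 and 2, where the shares of all genes tested were 4.28% and 6.09%.

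Sialic acid must be made, activated and attached before a sialomucin is complete. Of 30 listed genes of this pathway 10 were tested, and none of them was a sialyltransferase, because those listed were all on lines with fewer than 8 counts and are not analysed here. By genotype 0 of 10 were called in endothelium and 0 in podocytes by edgeR, with 0 at an unadjusted p under 0.05 and 0 called by DESeq2 in each. Neu4, a sialidase, had the smallest p in endothelium (2.95 ± 0.74 CPM in wild type, 5.56 ± 0.29 CPM in knockout; SD, n = 2; edgeR adjusted p 0.716). Gne, the enzyme that starts sialic acid synthesis, had it in podocytes, with a log2 fold change of −0.32 (SE 0.21; edgeR adjusted p 0.978). Between the cell types edgeR called 1 of the 10 in each genotype, close to the shares of all genes tested (8.99% in wild type and 10.4% in knockout). DESeq2 called 1 in wild type and 2 in knockout, where it called 1819 and 2263 of all 16477 genes tested. The gene that edgeR called was Gne in both genotypes. Wild-type endothelium held 130.04 ± 8.32 CPM and wild-type podocytes 71.9 ± 2.56 CPM (SD, n = 2), a log2 fold change of 0.85 (SE 0.21; edgeR adjusted p 0.0283), and was higher in knockout endothelium too (1.10, SE 0.21; edgeR adjusted p 0.00752).

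Enzymes that build O-glycan cores and selectin ligands gave 12 tested genes of 27. By genotype 0 of 12 were called in either cell type by edgeR or DESeq2, with 1 at an unadjusted p under 0.05 in each (5.49% and 4.43% of all genes tested). In endothelium this was Papss1, which makes the sulfate donor (194 ± 1.004 CPM in wild type, 130 ± 43.2 CPM in knockout; SD, n = 2; edgeR adjusted p 0.716), and in podocytes Papss2, its paralog (40.8 ± 22.9 against 93.6 ± 69.4 CPM; SD, n = 2; edgeR adjusted p 0.978). Between the cell types in wild type 3 of 12 were higher in endothelium and 1 higher in podocytes, where the shares of all genes tested were 4.26% and 4.73%. The endothelial side held the sulfotransferases Chst7, Chst2 and the tyrosine sulfotransferase Tpst2, whose log2 fold changes were 2.77, 1.80 and 1.67 (edgeR adjusted p 0.000764, 0.0150 and 0.00102). Chst1 was higher in podocytes, at 180 ± 44.6 against 13.7 ± 6.87 CPM (SD, n = 2), a log2 fold change of −3.71 (SE 0.36; edgeR adjusted p 0.000139). In knockout these 4 genes were called in the same directions, and Fut9, a fucosyltransferase, was also higher in podocytes (−2.91, SE 0.61; edgeR adjusted p 0.0114). Its knockout podocyte libraries lay far apart, at 49.6 and 15.4 CPM in replicates 2 and 3, against 4.16 and 4.47 CPM in knockout endothelium. The knockout shares of all genes tested were 4.28% higher in endothelium and 6.09% higher in podocytes.

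The cytoplasmic tails of CD34 and podocalyxin bind adaptors, such as CRKL for CD34 and the NHERF proteins and ezrin for podocalyxin. Of 12 listed symbols, which named both NHERF genes in an older and a newer form, 7 were tested. By genotype 0 of 7 were called by edgeR or DESeq2 in endothelium (2 at an unadjusted p under 0.05, where 5.49% of all genes tested were) and 0 in podocytes (0 at an unadjusted p under 0.05). Nherf1 had the smallest p in endothelium, at 88.8 ± 16.4 CPM in wild type and 61.2 ± 4.30 CPM in knockout (SD, n = 2; edgeR adjusted p 0.716), and Crkl in podocytes, at 81.9 ± 6.32 against 62.0 ± 9.63 CPM (SD, n = 2; edgeR adjusted p 0.978). In wild type 3 of 7 were higher in endothelium and 1 higher in podocytes, where the shares of all genes tested were 4.26% and 4.73%. Nherf2, Rdx and Msn were higher in endothelium, with log2 fold changes of 1.09, 1.23 and 1.38 (edgeR adjusted p 0.0417, 0.00495 and 0.0452). Their means in wild-type podocytes were still 908, 268 and 471 CPM. Ezr was higher in podocytes (−1.34, SE 0.30; edgeR adjusted p 0.0161). In knockout Nherf2 and Rdx were again higher in endothelium, where 4.28% of all genes tested were, and Msn was not called. Ezr and Nherf1 were higher in podocytes, where 6.09% of all genes tested were, with log2 fold changes of −1.73 and −1.12 (edgeR adjusted p 0.00413 and 0.00753). In the interaction the list genes of smallest p were Muc4, Neu1, Fut4 and Nherf1, and none passed (edgeR adjusted p 0.999996 for each; 1 gene of the 4 lists, Fut4, had an unadjusted p under 0.05, and DESeq2 called 0).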

How the data were processed

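The authors deposited raw counts, whole reads for each Entrez gene, with 1 column per library named after an alignment file, per the file headers. The genome build mm10 and the tool DESeq2 are named in the submitters' processing notes. The aligner, the counting tool, the annotation and the use of strand are not given in the sources used here. Of 22533 gene lines, 5207 (23.11%) had a comma in the description and held fewer than 8 counts, and those genes are not analysed here. For that reason alone 3 of the deposited columns were recorded as other than counts. In the RefSeq table of GRCm38.p6, Emcn overlaps Gm38650, Cd34 overlaps Gm16897 and Podxl2 overlaps Gm15612, so reads in those overlaps are uncertain.

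Counts were tested with edgeR 4.0.16 (R 4.3.3) after filterByExpr and TMM scaling, with a quasi-likelihood F test on 1 mean per group over all 8 libraries and Benjamini-Hochberg adjustment over 16477 genes at a threshold of 0.05. Intervals are the estimate plus or minus its standard error times the t quantile of the test's degrees of freedom. The fit was tested on simulated data, where it missed most of the smallest changes drawn and its calls held a larger share of false ones than the threshold. Log2 CPM used a prior count of 2. Alternatives were DESeq2 1.42.0, its size factors, library size only, no filter, the replicate number as a block, a minimum mean of 5 CPM, only the 4 libraries compared, and each library left out. A block with crossed podocyte numbers was added after seeing the data. The genes named were the 5 members, the 3 genes most like each, defining markers, and from 4 lists those of smallest p. The members and lists were chosen with earlier results of these data known.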

Additional observations from a re-analysis of the deposited data

How the results depend on the processing

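The direction of Emcn by genotype and of Emcn, Cd34 and Podxl between cell types was the same under each alternative tried for the members (the crossed block was run for the count of genes only), while several adjusted calls were not. Genes called by genotype numbered 1 in each cell type. They numbered 0 in both with library size only and with a mean of at least 5 CPM, 0 in podocytes with only the 4 libraries compared, and 10 in endothelium and 12 in podocytes with DESeq2. Without 1 library they ran from 0 to 0 in endothelium and from 0 to 1 in podocytes. Those between cell types ran from 769 to 1085 in wild type (1481 with all libraries; 769 without podocyte replicate 2 and 922 without endothelium replicate 3) and from 960 to 1809 in knockout (1709; 960 and 1115 without endothelium replicates 2 and 3, 1079 without podocyte replicate 2). Library size only split the knockout calls 738 higher in endothelium and 480 lower, where TMM gave 705 and 1004.

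Emcn by genotype was no longer called with library size only (−3.11 in endothelium, −3.26 in podocytes), a mean of at least 5 CPM (−3.27, −3.305) and, in podocytes, only the 4 libraries compared (−3.37). Without 1 library it ran from −3.49 to −3.39 and from −3.81 to −2.75. The endothelial Podxl value changed sign with library size only (0.28), a mean of at least 5 CPM (0.13) and only the 4 libraries compared (0.015), that of Cd164 with library size only (0.063), and the Emcn interaction with library size only (0.15) and a mean of at least 5 CPM (0.032). Without 1 library, values that changed sign ran from −0.27 to 0.35 for Cd34 and −0.25 to 0.24 for Podxl in endothelium, and from −0.47 to 0.087 for Cd34 in podocytes. In the interaction they ran from −0.67 to 0.37 for Emcn, −0.042 to 0.57 for Cd34, −0.49 to 2.59 for Podxl2 and −0.20 to 0.34 for Cd164. The Cd164 difference between cell types in wild type was not called with DESeq2 size factors (−0.84), library size only (−0.82), no filter (−0.89) or only the 4 libraries compared (−0.79), and ran from −0.99 to −0.80 without 1 library. In knockout it was called with DESeq2 (−0.83) and the replicate block (−0.82), and ran from −1.09 to −0.56 without 1 library. Podxl2 gave no value at a mean of at least 5 CPM, being filtered out. The cause of these changes was not tested.

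The labels do not say what the replicate number shared by libraries marks. The mitochondrial share and the tubule marker sum were higher in replicate 3 than in replicate 2 of every group. Deviations of same-numbered libraries correlated across genes at 0.19 and 0.16 between genotypes in endothelium and podocytes, and at −0.13 and 0.11 between cell types in wild type and knockout. With the replicate block the counts were 1, 1, 0, 1831 and 2241 for the 2 genotype comparisons, the interaction and the 2 cell-type comparisons, and with the podocyte numbers crossed the wild-type count was 1357. For the members the block changed no call other than that of Cd164.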
